A study of Magallana hongkongensis with 2 samples.

Results

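Small heat shock proteins are the 6 assembled transcripts ("unigenes") of the Hong Kong oyster described here, picked by identifier from 21226 unigenes listed in either of 2 gill libraries. They carry 4 descriptions taken from protein matches in the Pacific oyster Crassostrea gigas: a pair described as Stress-induced protein 1, a pair described as Alpha-crystallin B chain, and a single unigene each for Heat shock protein beta-1 and Protein lethal(2)essential for life. The same 4 descriptions stand on 9 unigenes in all, so 3 unigenes with these names lie outside the 6; their values are given beside them. No sequence of these unigenes was used here.

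Polyadenylated RNA was sequenced from gill of wild, adult, diploid oysters of undetermined sex (Crassostrea hongkongensis, now also Magallana hongkongensis), which had been acclimated for 2 weeks in sand-filtered seawater and fed algae. The group labelled heat shock spent 1 h in seawater warmed to 37 °C before going back to 23 °C, and the labels state a pool of gill from 10 oysters for it. The group labelled control stayed at 23 °C, with no stated number of oysters. Each group has 1 library, and no source used here gives how long after the heat shock the gills were taken.

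Small heat shock proteins are chaperones that share the alpha-crystallin domain. They assemble into large oligomers, need no ATP, and hold unfolding proteins in a soluble state until HSP70, with its HSP40 and nucleotide exchange partners, refolds them. Their genes are, in many animals, among those most strongly induced by heat through heat shock factor, and intertidal bivalves carry several of them.

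The libraries held 4173215 uniquely mapped reads for the heat shock label and 3925349 for the control label, with a median of 54 and 46 reads per listed unigene. The words fixed for cilia, the hallmark of gill epithelium, caught 94 unigenes that took 1.67% of the reads in the heat-shock-labelled library and 1.37% in the control-labelled library. Unigenes caught by words for muscle (26 unigenes) and gonad (80) were in sum each 1.17-fold higher in the heat-shock-labelled library. The 5 unigenes of hemocyte words held 320 reads in the heat-shock-labelled library and 275 in the control-labelled library, with an interval of the ratio that held 1. Among these, the hemocytin-like unigenes had 0 reads in the heat-shock-labelled library, and 1 and 16 in the control-labelled library. The 5 digestive gland unigenes held 71 reads in the heat-shock-labelled library and 49 in the control-labelled library, and the 6 unigenes caught by words for algal food held 232 and 326 in the same order. Their part in the results below was not tested. In bulk gill, fewer cells of a type and less RNA per cell cannot be told apart.

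Each of the 6 unigenes was lower in the heat-shock-labelled library, by 12.8-fold to 399-fold. Together they had 873 reads in the heat-shock-labelled library, 0.0209% of its total (exact 95% binomial interval 0.0196 to 0.0224%), against 58815 reads in the control-labelled library, 1.498% of its total (1.49 to 1.51%). The sum was 71.6-fold lower in the heat-shock-labelled library (interval 66.99 to 76.7). The 3 further unigenes of the same descriptions had smaller folds, by point value, than each of the 6. Over all 9 the sum was 28.7-fold lower (27.7 to 29.8). The direction of the 6 is opposite to the heat induction described above for such genes in many animals. Its cause was not tested. Each library is named by its label from here on. Whether the labels and the files were exchanged was not tested; if they were, every direction given here would turn round. Here and below, intervals are exact, at 95%, and cover counting error alone. They take each read as independent, which PCR copies are not, so they can be too narrow. Spread between oysters is not covered, since each group has 1 library. No p-value was computed, and each difference is one between these libraries, not between conditions.

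All 6 were called lower, which required at least 20 reads over both libraries, a ratio of at least 2 and an interval that left out 1. The background was 3.25% of the 17364 unigenes tested by the same rule (564 called lower), with 3.97% (690) called higher. With edgeR's TMM factors the split was 759 lower and 406 higher. The median log2 ratio of the 6, heat shock label over control label, was -5.67, beside 0.17 for all tested unigenes. With TMM factors these medians were -5.83 and 0.00. Over the 9 unigenes of the same descriptions the median, scaled to library totals, was -3.86. The members were chosen with these ratios known, so the count describes them and supports nothing by itself.

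**Figure D1:**
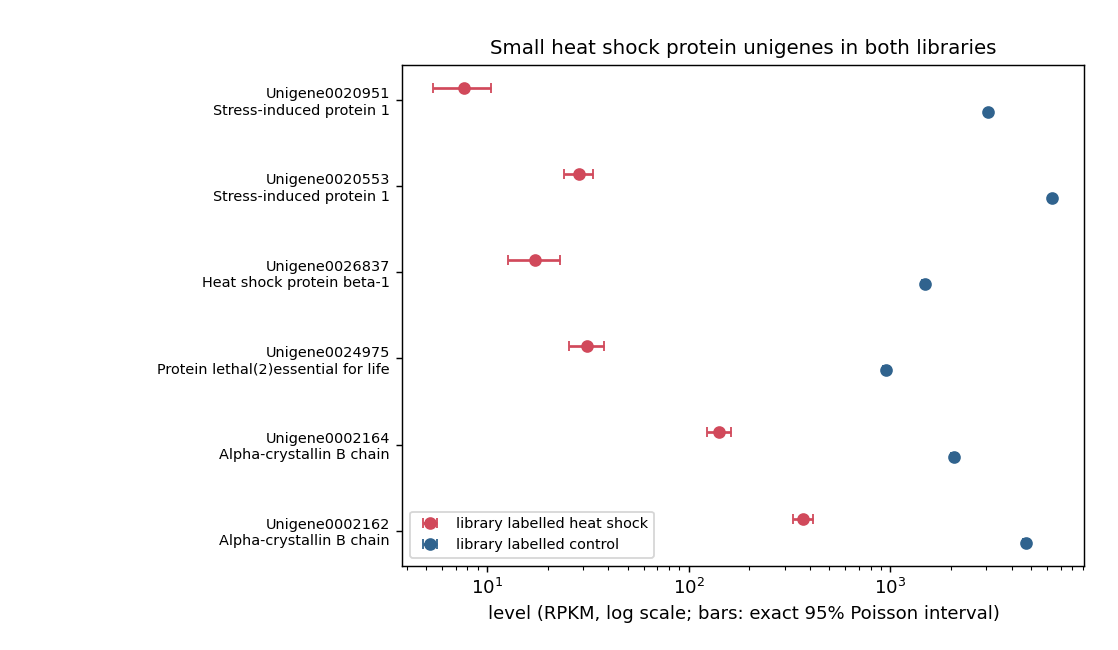
Level of each of the 6 unigenes in RPKM (log axis), with the heat-shock-labelled library in red above the control-labelled library in blue and exact 95% Poisson intervals. Every level in the heat-shock-labelled library lies at 369 or lower, and every level in the control-labelled library at 953 or higher.

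The pair described as Stress-induced protein 1, the name of a small heat shock protein of the nematode Caenorhabditis elegans, stood farthest apart between the libraries. Unigene0020951, 1187 bases long, had 38 reads in the heat-shock-labelled library and 14268 in the control-labelled library, or 7.67 and 3062 RPKM (the deposited reads per kilobase of unigene, scaled to the library total). It was 399-fold lower in the heat-shock-labelled library (291 to 564). Of 10503 unigenes with at least 100 reads over both libraries, it had the smallest ratio. By RPKM it ranked 13118 among all unigenes in the heat-shock-labelled library and 19 in the control-labelled library.

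Unigene0020553, 1232 bases long, had 147 reads in the heat-shock-labelled library and 30876 in the control-labelled library, or 28.6 and 6385 RPKM. It was 223-fold lower in the heat-shock-labelled library (189.9 to 264) and had the second smallest ratio. It was the most abundant of the 6 under the control label, where it ranked 8 among all unigenes by RPKM and 8 by reads. Under the heat shock label it ranked 4507 by RPKM. The pair did not keep one proportion: Unigene0020553 had 3.73 times the RPKM of Unigene0020951 in the heat-shock-labelled library (2.59 to 5.47), against 2.08 times in the control-labelled library (2.04 to 2.13). The fold of Unigene0020951 was 1.79 times that of Unigene0020553 (1.24 to 2.63). Unique counts leave out reads shared by near-identical copies, so the split between unigenes of the same name is uncertain.

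Heat shock protein beta-1 is the name of a mammalian small heat shock protein, also called HSP27, that is phosphorylated under stress and is tied to actin filaments. Its unigene among the 6, Unigene0026837 (664 bases), had 48 reads in the heat-shock-labelled library and 3881 in the control-labelled library, or 17.3 and 1489 RPKM. It was 86.0-fold lower in the heat-shock-labelled library (64.7 to 117). Its ratio ranked 4 from the smallest, behind the Stress-induced protein 1 pair and a heat shock protein 70 unigene (Unigene0009010).

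Protein lethal(2)essential for life is a Drosophila protein with the alpha-crystallin domain. Unigene0024975 (797 bases) had 104 reads in the heat-shock-labelled library and 2980 in the control-labelled library, or 31.3 and 953 RPKM. It was 30.5-fold lower in the heat-shock-labelled library (25.05 to 37.4). It was the least abundant of the 6 per length under the control label and ranked 9 by ratio.

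Alpha-crystallin B chain is known from the vertebrate lens, heart and muscle, where it holds filament and lens proteins in solution. Unigene0002164 (375 bases) had 222 reads in the heat-shock-labelled library and 3040 in the control-labelled library, or 142 and 2065 RPKM, and was 14.6-fold lower in the heat-shock-labelled library (12.7 to 16.8). Unigene0002162 (204 bases) had 314 reads in the heat-shock-labelled library and 3770 in the control-labelled library, or 369 and 4708 RPKM, and was 12.8-fold lower (11.4 to 14.4). Their ratios ranked 18 and 23 from the smallest. These folds could not be told apart at this depth, with a ratio of 1.14 between them (0.951 to 1.37). In level, Unigene0002162 had 2.60 times the RPKM of Unigene0002164 in the heat-shock-labelled library (2.18 to 3.10) and 2.28 times in the control-labelled library (2.17 to 2.39), intervals that overlap. At 204 and 375 bases they can encode at most 68 and 125 amino acids, and the files do not say whether they are pieces of 1 transcript, so they may not be independent.

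Among the 15 pairs that the 6 unigenes form, the Alpha-crystallin B chain pair was the one whose interval for the ratio of folds held 1. For the other 14 the interval lay above 1. The order of folds, from the largest, was thus Unigene0020951, Unigene0020553, Unigene0026837, Unigene0024975 and then the Alpha-crystallin B chain pair. It is an order of these 6 unigenes and not of their descriptions, since other Heat shock protein beta-1 unigenes, given below, had smaller folds. These ratios of folds do not depend on how the libraries are scaled. Summed by description, the Stress-induced protein 1 pair was 259-fold lower in the heat-shock-labelled library (225 to 301) and the Alpha-crystallin B chain pair 13.5-fold lower (12.4 to 14.8).

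**Figure D2:**
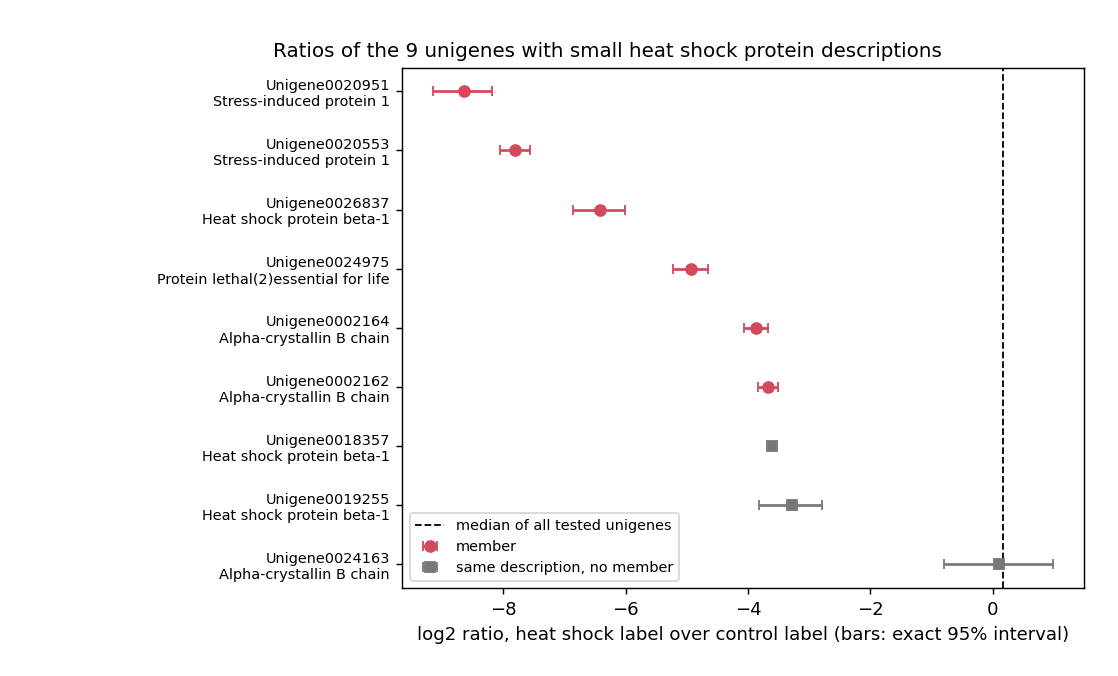
Log2 ratio, heat shock label over control label, of the 9 unigenes that carry the 4 descriptions, without a prior count and with exact 95% intervals; red circles are the 6 members, grey squares the other 3 unigenes, and the dashed line is the median of all tested unigenes (0.17). The 6 members lie between -8.64 and -3.67, while the Alpha-crystallin B chain Unigene0024163 lies at 0.10.

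The order of levels differed between the libraries. In the heat-shock-labelled library the RPKM order was Unigene0002162, Unigene0002164, Unigene0024975, Unigene0020553, Unigene0026837 and Unigene0020951, and it ran over a 48.1-fold range. The neighbours Unigene0024975 and Unigene0020553 did not differ beyond counting error there (ratio 1.09, 0.842 to 1.42). In the control-labelled library the order was Unigene0020553, Unigene0002162, Unigene0020951, Unigene0002164, Unigene0026837 and Unigene0024975, over a 6.70-fold range, and each neighbour differed beyond counting error. The 6 transcripts thus lay closer together in level under the control label. RPKM of the unigenes of 204 and 375 bases is the least certain, since fewer read positions fit in a short transcript.

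The makeup of the summed reads differed in the same way. The Stress-induced protein 1 pair took 21.2% of the 873 reads in the heat-shock-labelled library (18.5 to 24.1%) and 76.8% of the 58815 reads in the control-labelled library (76.4 to 77.1%). The Alpha-crystallin B chain pair took 61.4% in the heat-shock-labelled library (58.1 to 64.6%) and 11.6% in the control-labelled library (11.3 to 11.8%). Unigene0026837, the 1 Heat shock protein beta-1 among the 6, took 5.50% in the heat-shock-labelled library (4.08 to 7.22%). In the control-labelled library it took 6.60% (6.40 to 6.80%), and these intervals overlapped. All these shares are of the 6 only, not of their descriptions. Over the 9 unigenes of the same descriptions, another Heat shock protein beta-1, Unigene0018357, took 70.01% under the heat shock label. Under the control label it took 29.6%. Per length the shares were different. The Stress-induced protein 1 pair held 6.09% of the reads per kilobase in the heat-shock-labelled library and 50.6% in the control-labelled library. The Alpha-crystallin B chain pair held 85.8% and 36.3% in the same order. Unigene0026837 held 2.91% per kilobase in the heat-shock-labelled library and 7.98% in the control-labelled library, although its intervals by reads overlapped.

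**Figure D3:**
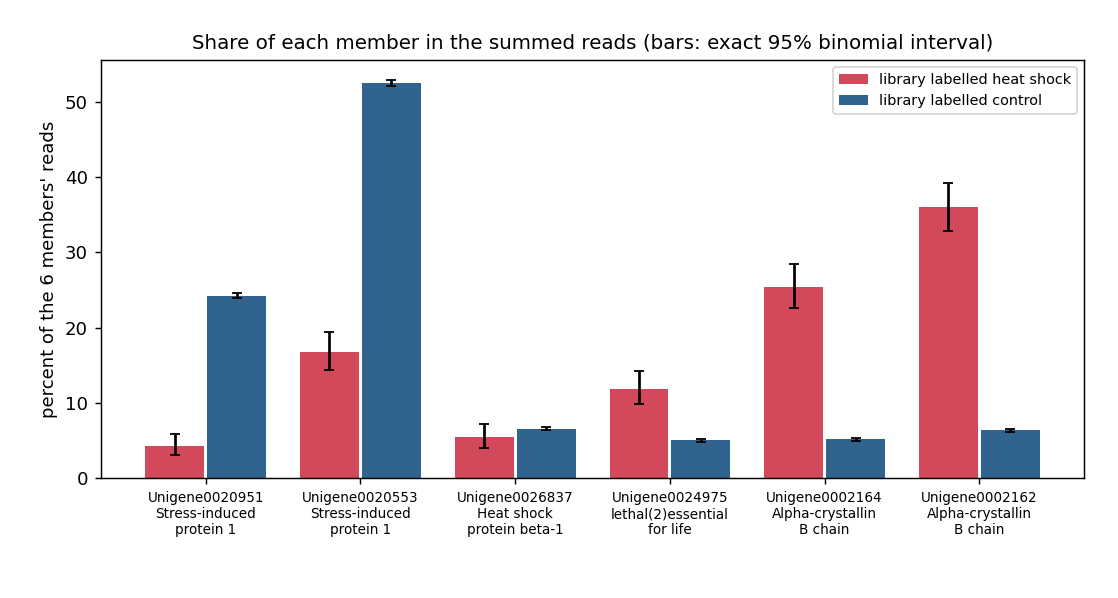
Share of each of the 6 unigenes in their summed reads, in percent, with the heat-shock-labelled library in red left of the control-labelled library in blue and exact 95% binomial intervals. Unigene0020553 holds 16.8% under the heat shock label and 52.5% under the control label, and Unigene0002162 holds 35.97% and 6.41%.

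The reads lay along most of each unigene, as the authors' coverage shows. In the heat-shock-labelled library 64.11% of Unigene0020951 was covered by its 38 reads and 96.57% of Unigene0002162 by its 314. In the control-labelled library the coverage ran from 87.47% (Unigene0002164) to 99.92% (Unigene0020951). Unigene0020553 had a coverage of 91.15% under the control label with its 30876 reads, below that of all 7 other unigenes whose reads per base lay within 1.5-fold of its own (median 99.19%). Unigene0002164 was likewise less covered than most unigenes of like read density, at 82.67% in the heat-shock-labelled library (median of 710 others 96.95%) and 87.47% in the control-labelled library (median of 37 others 98.85%).

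Of the 3 further unigenes with these descriptions, 2 were called lower in the heat-shock-labelled library and 1 was not. Unigene0018357, a second Heat shock protein beta-1 (1596 bases), had 2180 reads in the heat-shock-labelled library and 24890 in the control-labelled library, or 327 and 3973 RPKM, and was 12.1-fold lower in the heat-shock-labelled library (11.6 to 12.7). It took 70.01% of the reads of all 9 unigenes under the heat shock label (68.4 to 71.6%) and 29.6% under the control label (29.3 to 29.9%). The fold of the member Unigene0026837 was 7.08 times that of Unigene0018357 (5.31 to 9.65), so unigenes of the same description differed in fold beyond counting error. In level, Unigene0018357 had 18.9 times the RPKM of Unigene0026837 under the heat shock label (14.2 to 25.7) and 2.67 times under the control label (2.58 to 2.76).

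The third Heat shock protein beta-1, Unigene0019255, was rarer, with 36 reads in the heat-shock-labelled library and 330 in the control-labelled library, and 9.75-fold lower in the heat-shock-labelled library (6.896 to 14.2). The remaining Alpha-crystallin B chain, Unigene0024163 (862 bases), had 25 reads in the heat-shock-labelled library and 22 in the control-labelled library. Its ratio was 1.07 (0.578 to 1.99), so no difference was detectable at this depth; with TMM factors the ratio lay on the other side of 1. The fold of Unigene0002162 was 13.6 times that of Unigene0024163 (7.28 to 25.7). Over all 9 unigenes, 8 were called lower and the sum was 28.7-fold lower in the heat-shock-labelled library (27.7 to 29.8), with a median log2 ratio of -3.86.

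Words for the wider alpha-crystallin family caught other unigenes that are no small heat shock proteins by name. S-crystallin is a lens protein of cephalopods derived from glutathione S-transferase, and its most abundant unigene (Unigene0023519) had 2486 reads in the heat-shock-labelled library and 1178 in the control-labelled library, 1.985-fold higher in the heat-shock-labelled library (1.85 to 2.13). The second S-crystallin unigene (Unigene0032888) was 1.55-fold higher there (1.24 to 1.94). J-crystallins are lens proteins of jellyfish, and the intervals of Crystallin J1C (Unigene0025014, 31 and 18 reads in the heat-shock-labelled and control-labelled libraries) and of a crystallin J1A-like unigene (Unigene0021798, 10 and 17 reads) held 1. So did that of HSPB1-associated protein 1, a binding partner of HSP27 in mammals (Unigene0027527, 12 and 14 reads). None of these 5 was called, and with Unigene0018357, Unigene0019255 and Unigene0024163 the words gave 2 called of 8 tested.

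**Figure D4:**
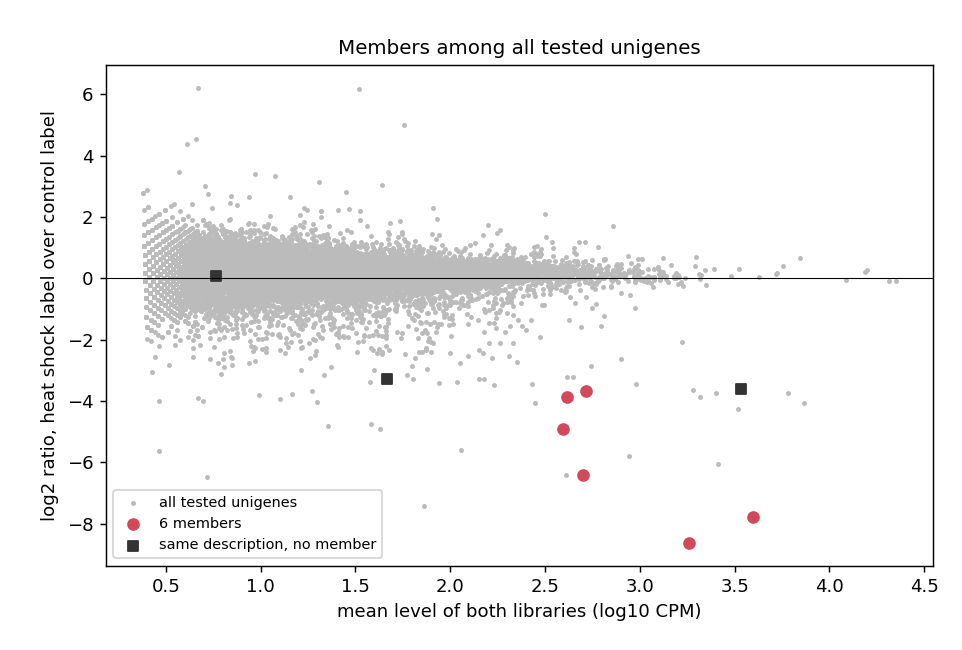
Log2 ratio, heat shock label over control label, against the mean level of both libraries (log10 CPM) for the 17364 tested unigenes in grey, the 6 members as red circles and the 3 unigenes of the same descriptions as black squares. The 6 members lie at log2 ratios of -3.67 or lower (prior count 0.5), and 17 grey points among unigenes with at least 100 reads lie at or below the highest of them.

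The 6 unigenes stood among other chaperones at the low end of the ratios. Of the 23 unigenes with the smallest ratios among those with at least 100 reads, a run that ends at Unigene0002162, 6 were small heat shock proteins, 6 were on the list of HSP70 and HSP110, 2 on that of BAG proteins, heat shock factors and co-chaperones, 1 was HSP90, and 8 were on none of the lists. Being on none of the lists does not mean being no chaperone. The 8 include 78kDa glucose regulated protein (Unigene0015183, log2 ratio -4.27), a chaperone of the endoplasmic reticulum whose name the words did not catch. All 10 tested unigenes of the HSP70 and HSP110 list, the ATP-driven refolding partners, were called lower, at a median of -4.72 on the log2 scale. The words for this list left out HSPA12, HSPA13, HSPA14 and binding or interacting proteins. The count thus does not cover every unigene of HSP70 type. The most abundant unigenes of the list were heat shock protein 70 (Unigene0005548), 13.5-fold lower in the heat-shock-labelled library (13.04 to 13.97), and Heat shock protein 70 B2 (Unigene0016013), 66.2-fold lower (59.3 to 74.2).

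The single unigene of the HSP90 list, a chaperone of signalling proteins and receptors (Unigene0015010), was 16.6-fold lower in the heat-shock-labelled library (16.02 to 17.2). In the HSP40 list, whose proteins hand clients to HSP70, 12 of 61 tested unigenes met the call in the lower direction and 0 in the higher, at a median log2 ratio of -0.11. DnaJ-like protein subfamily B member 4 (Unigene0011311) was 9.25-fold lower there (8.297 to 10.3), while the subfamily B member 11 (Unigene0015415), of the endoplasmic reticulum, was 1.299-fold higher in the heat-shock-labelled library (1.21 to 1.39). The list of BAG proteins, heat shock factors and co-chaperones had 8 of 12 unigenes in the lower call and 0 in the higher, at a median log2 ratio of -2.67. BAG family molecular chaperone regulator 4, a nucleotide exchange partner of HSP70 (Unigene0009414), was 56.3-fold lower (47.3 to 67.6), and the HSP90 co-chaperone Cdc37 (Unigene0017217) 6.04-fold lower (5.19 to 7.07). The 4 called in neither direction were BAG family molecular chaperone regulators 1, 2 and 3-like isoform X1, and heat shock factor binding protein 1. Their reads, in that order, were 120, 18, 54 and 675 in the heat-shock-labelled library. In the control-labelled library they were 93, 9, 41 and 552. No heat shock factor itself was caught by these words, only its binding protein.

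Chaperonins, the ring-shaped folding chambers, all had a log2 ratio of -1.72 or nearer to 0: 5 of 14 met the lower call and 0 the higher, and the median log2 ratio was -0.87. The mitochondrial chaperonin HSP60 (Unigene0003477) was 1.82-fold lower in the heat-shock-labelled library (1.68 to 1.98), and T-complex protein 1 subunit eta-like (Unigene0016799) 1.497-fold lower (1.36 to 1.65). The words also caught T-complex protein 11-like protein 1 (Unigene0032782), which is no chaperonin. It was one of the 5 called.

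By the log2 ratio over the 2 libraries, the described unigenes outside the 6 that lay nearest to their median of -5.67 were Heat shock protein 70 B2 (Unigene0016083, 0.08 away), BAG family molecular chaperone regulator 4 (Unigene0009414, 0.14), Heat shock protein 70 B2 (Unigene0016013, 0.38), heat shock protein 70 (Unigene0009009, 0.74), a second BAG family molecular chaperone regulator 4 (Unigene0032209, 0.76) and a unigene matched to a membrane receptor (Unigene0013477, 0.84). Likeness over 2 libraries says only that the ratios are close. Common reference genes lay near the median unigene. Elongation factor 1-alpha (Unigene0017434) was 1.03-fold lower in the heat-shock-labelled library (1.02 to 1.05). Tubulin alpha-1A (Unigene0018155) was 1.21-fold higher there (1.198 to 1.23), beta-tubulin (Unigene0030774) 1.16-fold (1.15 to 1.18), Glyceraldehyde-3-phosphate dehydrogenase (Unigene0019811) 1.15-fold (1.09 to 1.22) and beta-actin (Unigene0032829) 1.13-fold higher (1.11 to 1.15).

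The authors' annotation was sparse for the 6. Unigene0020553 was assigned to the KEGG pathway of protein processing in the endoplasmic reticulum and to response to stimulus, Unigene0026837 to protein phosphorylation and autophagy, and the other 4 to none. Of 173 tested unigenes of that KEGG pathway, looked at after the values were seen, 44 were called lower and 2 higher. The background by this rule, over 17364 unigenes, was 3.25% lower and 3.97% higher. The 44 include Unigene0020553 itself. Unigenes that are also on the chaperone lists above were not taken out, so the count may repeat those lists. Its ratio was the smallest in the pathway, which adds nothing new. Among unigenes with at least 100 reads only Unigene0020951 had a smaller one, and it was assigned to no pathway.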

How the data were processed

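The authors' deposited files give, per the file headers, each unigene's count of uniquely mapped reads, its length in bases, the percent of its length covered by reads and its RPKM. The tools CASAVA 1.4 and cutadapt 1.8.1 are named, per the submitters' processing notes; no source used here gives the aligner or the assembly. The deposited RPKM equalled count over length and library total to within a relative difference of 5.1e-15. A unigene listed in 1 file was set to 0 reads in the other (402 were listed under the heat shock label only, 475 under the control label only).

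Ratios were scaled to library totals, with exact conditional binomial (Clopper-Pearson) intervals; a ratio of folds took the exact conditional interval of the 2 by 2 reads. Levels took exact Poisson intervals. Log2 ratios used a prior count of 0.5. With 1 library per group no replicate test was possible, so no DESeq2 or edgeR test was run; edgeR 4.0.16 gave TMM factors only. Python 3.11.15 and scipy 1.17.1 were used. The calls were tried on simulated counts that held counting error alone, which cannot show how they fare with spread between pools of oysters. The members, lists and rules were chosen with earlier results of these data known. Named besides the 6 are the unigenes of their descriptions, up to 8 caught by the family words, and the 2 most abundant of each chaperone list. The 6 nearest in ratio and the reference genes are named too. Unigene0009010, Unigene0032782, Unigene0015183 and the 4 unigenes of the co-chaperone list called in neither direction were named after their values were seen. Uniquely mapped reads leave out those shared by near-identical copies, which can lower the counts of such unigenes in both libraries.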

Additional observations from a re-analysis of the deposited data

How the results depend on the processing

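With scaling by TMM factors (edgeR), by the median of ratios, or by library totals without the 6 unigenes, and with a prior count of 5, each of the 6 kept its direction and a fold within its own interval. All 6 were called lower under each of these scalings, with no minimum or a minimum of 100 reads, with ratios of at least 1.5 or 4, and with a stricter interval. The summed fold was 80.3 with TMM factors and 80.4 with the median of ratios, because these scalings multiply every fold by 1.12; it was 28.7, with a median log2 ratio of -3.86, over the 9 unigenes of the same descriptions, a set chosen after seeing the data. Calls over all unigenes were 312 lower and 196 higher with a minimum of 100 reads, 992 and 1851 with a ratio of 1.5, and 141 and 55 with a ratio of 4. The higher calls were 315 with the stricter interval, 406 with TMM factors and 405 with the median of ratios. Chaperonins called lower were 8 with TMM factors and 8 with the median of ratios; the other chaperone lists stayed within 1.5 times their counts. Of the 12 shares of single unigenes in the summed reads, 10 lay outside their intervals when taken per kilobase. The near-even ratio of Unigene0024163 rests on 47 reads in all. No paired analysis was possible because each group has 1 library, and for the same reason no library could be left out.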
